A study of Mus musculus with 6 samples.

Results

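The Notch genes described here are the 4 receptors Notch1 to Notch4, the ligands Jag1, Jag2, Dll1 and Dll4, and the target genes Hes1 and Hey1. They were chosen by name with earlier results of these data known, and all 10 had a named probe set among the 22180 genes tested. The other gene lists were also chosen with those results known. Counts set beside the shares of all genes are therefore descriptive. Expression was measured on 6 Affymetrix arrays, 1 for each culture well: 3 wells received vehicle and 3 received purmorphamine, a small molecule that activates the Hedgehog signal transducer Smoothened, for 24 h at a dose labelled 5um, read here as 5 µM. Both groups were primary cultures, described as fibroblast-enriched and kept for at most 3 passages. They came from digested whole lungs of wild-type male C57BL/6 mice aged 8 weeks. Macrophage and leukocyte markers were bright in both groups, as given below. How many mice were used, and whether their cells were pooled, is not stated in the labels. Tests over wells therefore capture well-to-well spread, which can be purely technical.

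Notch receptors are single-pass membrane proteins that bind Jagged or Delta-like ligands on a neighbouring cell. Binding exposes the receptor to ADAM metalloproteases and then to the gamma-secretase complex, which release an intracellular domain that joins the DNA-binding protein Rbpj and Mastermind-like coactivators and switches on HES and HEY repressor genes. In the lung, Notch4 and Dll4 are known mainly from endothelium and Notch3 from pericytes and smooth muscle, while Notch1, Notch2 and Jag1 are used by many cell types.

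In the purmorphamine wells Notch1 was lower by 1.40-fold, while Notch3 and Hey1 were higher by 1.35-fold and 1.26-fold. Hes1, the other target gene, differed by only -0.01 log2 units. Among the other pathway genes the widest difference was that of Lfng, the fringe glycosyltransferase that sets which ligands a Notch receptor answers to, which fell by 2.38-fold. Of the 10 Notch genes 2 rose and 1 fell at a limma adjusted p under 0.05, against 14.3% of all genes called, 7.18% upward and 7.16% downward. A share of that size would be 1 or 2 genes of 10. The groups did not overlap in 5 of the 10, of which Notch4 only just, against 34.2% of all genes. The median difference of the 10 was 0.04, and that of all genes was -0.01.

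The stretches before the start sites of the 2 receptors that changed are shown because they moved in opposite directions. Each is the 250 bases upstream in the RefSeq promoter table of build GRCm38.p6, read 5′ to 3′ on the strand of the gene, which is the minus strand for both. Notch1 lies on chromosome 2 with its upstream bases at chr2:26503823-26504072, and Notch3 lies on chromosome 17 with its upstream bases at chr17:32166891-32167140. Capitals mark the GC box GGGCGG, or CCGCCC where it reads on the other strand.
Notch1: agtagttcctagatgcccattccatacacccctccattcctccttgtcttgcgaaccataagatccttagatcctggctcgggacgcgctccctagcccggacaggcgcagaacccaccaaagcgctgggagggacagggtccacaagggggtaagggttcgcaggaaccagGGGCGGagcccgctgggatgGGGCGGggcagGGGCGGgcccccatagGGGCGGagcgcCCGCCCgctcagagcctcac
Notch3: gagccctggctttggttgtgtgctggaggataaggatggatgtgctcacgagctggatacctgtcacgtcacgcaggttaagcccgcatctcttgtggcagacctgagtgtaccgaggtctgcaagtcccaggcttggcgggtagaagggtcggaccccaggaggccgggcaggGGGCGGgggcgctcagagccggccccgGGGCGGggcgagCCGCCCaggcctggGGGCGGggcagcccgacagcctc

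Both stretches were rich in GC boxes, with 5 in Notch1 and 4 in Notch3, all within the last 78 bases before the start. They held 66% and 68.8% G and C, against a median of 52.4% over the 32851 promoters in the table. A GC box stood in 5 of the 9 upstream stretches that the table gives for 8 of the Notch genes, and in 32.7% of all promoters. Notch2 and Jag2, which were not called, held 5 each, so GC boxes are not particular to the receptors that changed. This motif was chosen after the sequences had been seen. The Rbpj core TGGGAA, the HEY E-box CACGTG and the GLI consensus GACCACCCA, each searched on both strands, were in 0 of the 9, against 21.6%, 6.02% and 0.225% of all promoters. Only GC boxes matched, so no match overlapped that of another motif. Letter matches describe these windows and say nothing of binding.

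Notch1 read 9.20, 9.19 and 9.24 on the vehicle arrays and 8.69, 8.68 and 8.80 on the purmorphamine arrays, on the log2 scale of the deposited RMA values. All 3 purmorphamine wells lay below all 3 vehicle wells. The fitted fall was 0.49 (95% interval -0.62 to -0.35, limma adjusted p = 0.0021, n = 3 per group), and it ranked 558 of 22180 by p. Leaving out any 1 array kept the call, with limma adjusted p from 0.0058 to 0.012.

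Notch3 moved the other way. It read 6.75, 6.54 and 6.58 with vehicle and 7.06, 6.98 and 7.11 with purmorphamine, so the groups did not overlap. The rise was 0.43 (0.26 to 0.60, limma adjusted p = 0.0090, n = 3 per group). Its signal was near the array medians of 6.34 to 6.39, where RMA compresses changes, so the size may be understated. The call held with any 1 array left out (limma adjusted p from 0.011 to 0.038).

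Notch2 read 10.72, 10.75 and 10.85 with vehicle and 10.81, 10.80 and 10.87 with purmorphamine. The groups overlapped, and the difference of 0.05 had an interval of -0.08 to 0.19. Notch4 read 7.42, 7.56 and 7.50 with vehicle and 7.61, 7.56 and 7.59 with purmorphamine, with the closest wells level at this precision. Its difference was 0.10 (-0.04 to 0.23, limma adjusted p = 0.34). For Notch2 and Notch4 both intervals end well inside a 1.5-fold change, which is 0.58 on this scale.

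**Figure D1:**
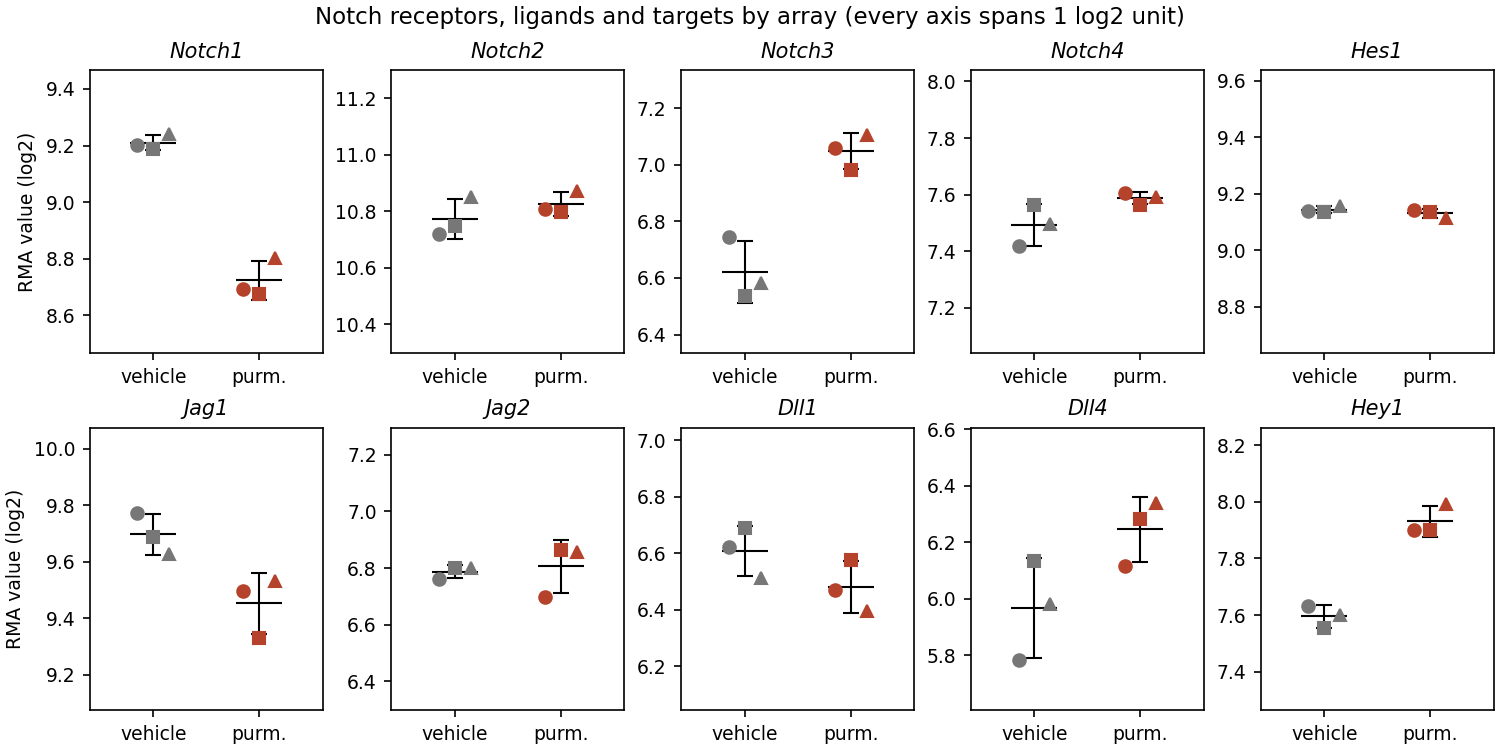
Deposited log2 RMA values of the 10 Notch genes on each array. Each point is 1 well (circle, square and triangle for replicates 1, 2 and 3), bars give the mean and SD of 3 wells, and every vertical axis spans 1 log2 unit. The groups are apart for Notch1, Notch3, Jag1 and Hey1, touch for Notch4, and overlap for the others.

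Because Notch1 and Notch3 were read from the same arrays, their changes can be set against each other within each well. The log2 difference of Notch3 from Notch1 shifted by 0.92 (SE 0.07) between the groups, and that of Notch3 from Notch2 by 0.38 (SE 0.09). The same measure for Jag1 and Notch1 shifted by 0.24 (SE 0.07), since Notch1 moved further down than Jag1. Hey1 moved 0.35 (SE 0.05) relative to Hes1. These 4 pairs were chosen after their values had been seen, and in each the groups of 3 did not overlap. For Notch3 with Notch1, Notch3 with Notch2 and Hey1 with Hes1 this separation follows from the single genes. The pairs are therefore no further test of these genes, and the share of other gene pairs that separate was not computed. The two-sided exact permutation test gave p = 0.10 for each pair, also after Benjamini-Hochberg adjustment, which is the smallest p that 3 against 3 wells allow.

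None of the 4 ligands passed the test. Jag1, the Jagged ligand that many stromal cells present, read 9.77, 9.69 and 9.63 with vehicle and 9.50, 9.33 and 9.53 with purmorphamine. All purmorphamine wells were below all vehicle wells, by a mean of -0.24 (-0.42 to -0.07, limma adjusted p = 0.073). It was past the threshold with a linear offset of 50 (limma adjusted p = 0.026), without the dimmest genes (a share of 0.333; 0.030) and with trended, robust eBayes (0.0089), and it missed the threshold with each array left out (0.089 to 0.186).

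Dll4, the Delta-like ligand of sprouting endothelium, read 5.78, 6.14 and 5.98 with vehicle and 6.12, 6.28 and 6.34 with purmorphamine. The highest vehicle well overlapped the lowest purmorphamine well, and the difference was 0.28 (0.04 to 0.52, limma adjusted p = 0.13). Jag2 read 6.76, 6.80 and 6.80 with vehicle and 6.70, 6.86 and 6.86 with purmorphamine, a difference of 0.02 (-0.13 to 0.17). Both genes were dim, and their intervals bound the array values, not the transcripts.

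Dll1, a Delta-like ligand with a role in somite development, had 2 probe sets that differed in sign. The brighter read 6.62, 6.69 and 6.51 with vehicle and 6.47, 6.58 and 6.40 with purmorphamine, a difference of -0.13 (-0.30 to 0.04). The dimmer differed by 0.12 (-0.03 to 0.27), and the mean of both by -0.003. With neither past the test (limma adjusted p of 0.32 and 0.29 with each probe set tested separately), no direction is given for Dll1.

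**Figure D2:**
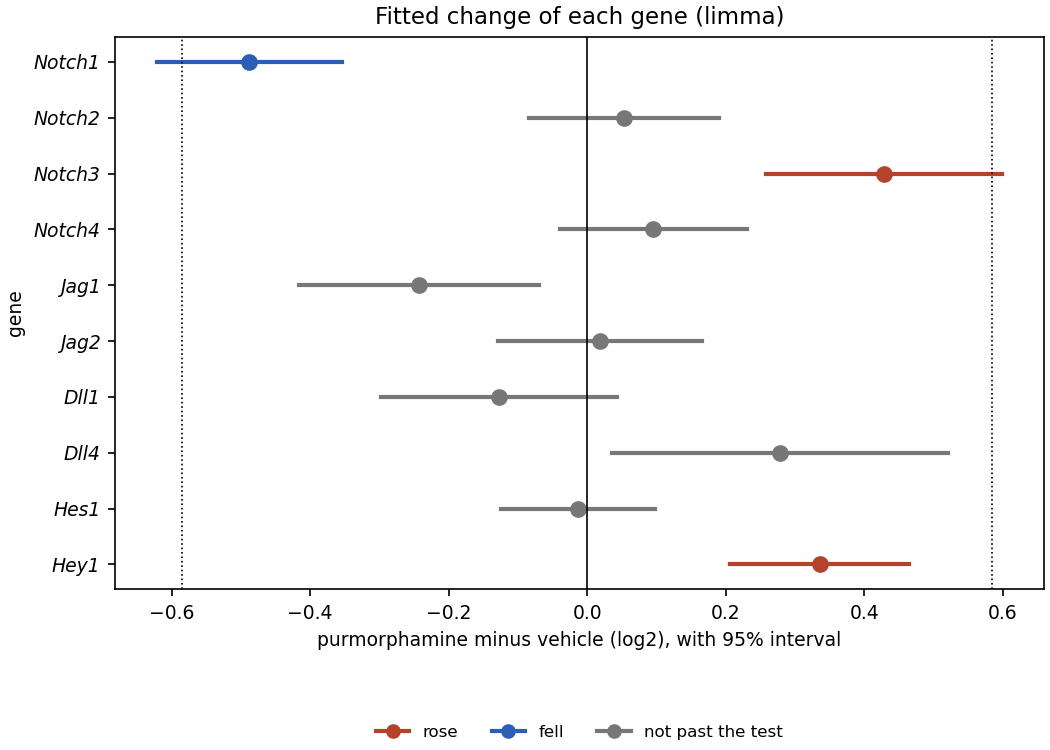
Fitted change of each Notch gene, purmorphamine minus vehicle on the log2 scale, with its 95% interval from limma. Dotted lines stand at a 1.5-fold change. Notch1 lies at -0.49, Notch3 at 0.43 and Hey1 at 0.34, while the interval of Hes1 (-0.12 to 0.10) is centred near 0.

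The target genes Hes1 and Hey1 encode related basic helix-loop-helix repressors. Hey1 read 7.63, 7.55 and 7.60 with vehicle and 7.90, 7.90 and 7.99 with purmorphamine. The groups lay well apart, and the rise was 0.34 (0.21 to 0.47, limma adjusted p = 0.0079, n = 3 per group). It held with any 1 array left out (limma adjusted p from 0.024 to 0.034). Hey1 is also known as a gene that BMP signals induce.

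Hes1 was the steadiest of the 10. It read 9.14, 9.13 and 9.16 with vehicle and 9.14, 9.13 and 9.11 with purmorphamine, with SDs of 0.01 and 0.02. Its difference of -0.01 had an interval of -0.12 to 0.10 (limma adjusted p = 0.90), which ends well inside a 1.5-fold change on both sides. The remaining HES and HEY family genes and Nrarp, a Notch target that feeds back on the pathway, gave 0 rises and 0 falls among 8 measured, and 1 had an unadjusted p under 0.05 by limma. That gene was Hes5, which differed by -0.18 (limma adjusted p = 0.10) and by -0.19 in its dimmer probe set. Heyl differed by -0.13, Nrarp by -0.15, Hey2 by -0.12, Hes3 by -0.09 and Hes2 by -0.04, and Hes6 and Hes7 by 0.08 and 0.11. The median of these 8 was -0.11. Hey1 was thus the single called gene among the 10 HES, HEY and Nrarp genes measured.

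Of the 46 other pathway genes measured, out of 48 listed, 7 rose and 3 fell, and their groups did not overlap in 19. The background stands at 14.3% of all genes called and 34.2% without overlap, and the median difference of the 46 was 0.02. Glycosylation and cleavage of the receptor held 6 of these 10 calls, with 3 rises and 3 falls among 14 genes.

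Lfng, lunatic fringe, extends O-linked fucose on Notch receptors in the Golgi and so shifts their response between Delta-like and Jagged ligands. It read 10.12, 10.11 and 10.14 with vehicle and 8.90, 8.91 and 8.81 with purmorphamine. The groups were more than a log2 unit apart, and the fall was 1.25 (-1.38 to -1.13, limma adjusted p = 5.29e-05, n = 3 per group). It ranked 21 of all genes by p. The related fringe genes Mfng (-0.10) and Rfng (-0.07), chosen after their values were seen, did not pass the test.

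The 2 ADAM sheddases that cut Notch receptors moved in opposite directions. Adam17 read 10.77, 10.83 and 10.83 with vehicle and 11.21, 11.08 and 11.13 with purmorphamine, a rise of 0.33 (limma adjusted p = 0.0097). Adam10, the protease that ligand-bound receptors mainly use, read 12.11, 12.08 and 12.16 with vehicle and 11.79, 11.64 and 11.81 with purmorphamine, a fall of 0.37 (limma adjusted p = 0.011). Neither pair of groups overlapped, and both calls held with any 1 array left out. Adam10 and Aph1a fell outside the naming rule and were chosen after their values were seen.

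Subunits of gamma-secretase also differed among themselves. Ncstn (-0.004) and Psenen (-0.05, and 0.05 in its dimmer probe set), chosen after their values were seen, were not called. Psen2, one of its catalytic subunits, rose by 0.31 (limma adjusted p = 0.0082). The scaffold gene Aph1c read 9.26, 9.31 and 9.19 with vehicle and 9.97, 10.31 and 10.06 with purmorphamine, and rose by 0.86 (0.64 to 1.08, limma adjusted p = 0.0016). Its close paralog Aph1b differed by -0.09 and was not called, and since probes may not tell the copies apart, Aph1c is uncertain as a separate signal. Aph1a fell by 0.23 (limma adjusted p = 0.021) in its brighter probe set and differed by -0.10 in the dimmer. That call held in 1 of 6 cases with an array left out, the case without purmorphamine replicate 2 (0.041), and the others gave limma adjusted p from 0.059 to 0.078.

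**Figure D3:**
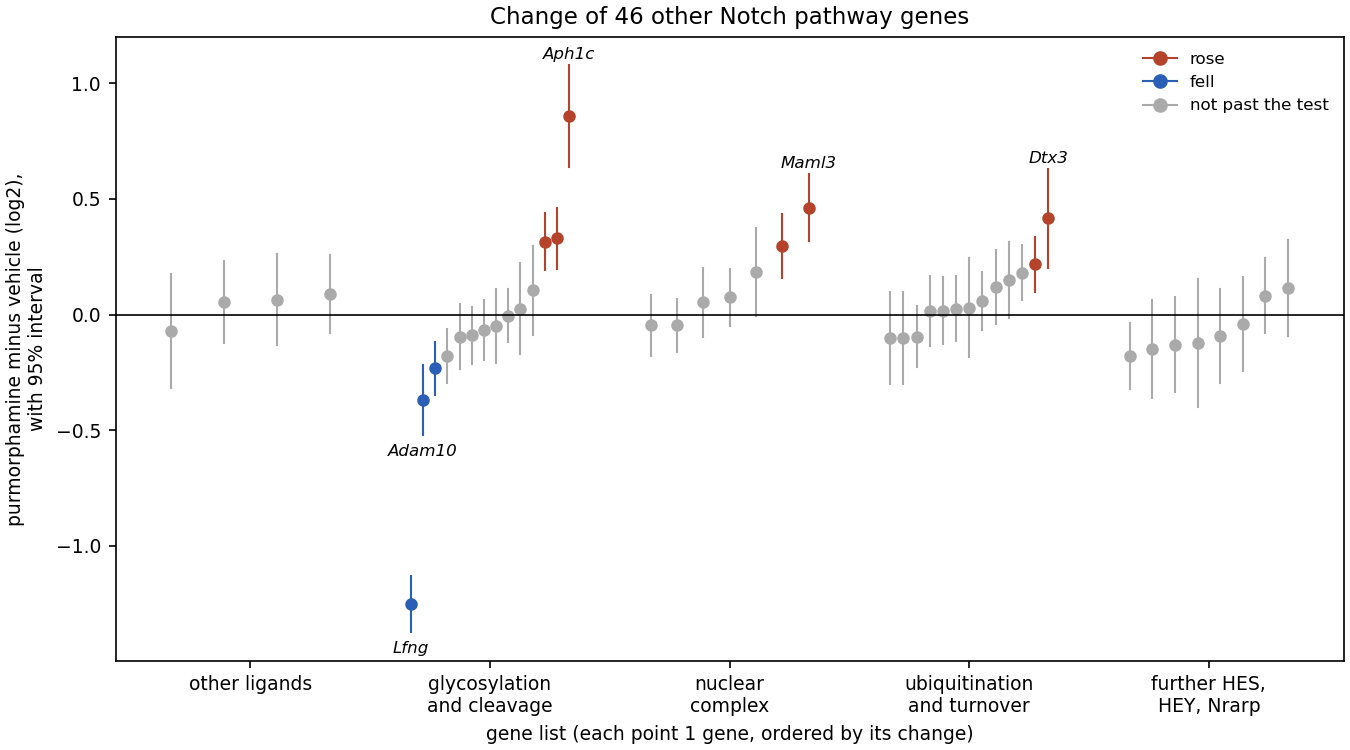
Change of the 46 other Notch pathway genes, purmorphamine minus vehicle on the log2 scale with 95% intervals from limma, by role. Each point is 1 gene. Lfng (-1.25) and Aph1c (0.86) lie farthest from 0, and all 4 further ligands and all 8 further target genes are grey, not past the test.

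In the nucleus, Rbpj read 11.24, 11.25 and 11.20 with vehicle and 11.19, 11.19 and 11.17 with purmorphamine, a difference of -0.05 (-0.16 to 0.07, limma adjusted p = 0.59). Its dimmer probe set differed by -0.17, with a wider interval of -0.40 to 0.07. Of the 7 genes of the nuclear complex 2 rose and 0 fell. Maml3, a Mastermind-like coactivator, rose by 0.46 (0.32 to 0.61, limma adjusted p = 0.0035), whereas its paralogs Maml1 (0.18) and Maml2 (-0.05) were not called. The corepressor gene Cir1 rose by 0.30 (limma adjusted p = 0.017), and missed the test without vehicle replicate 2 (0.063) or vehicle replicate 3 (0.053).

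Among 13 genes of ubiquitination and turnover 2 rose and 0 fell, a share near the 14.3% of all genes called. Both encode Deltex ubiquitin ligases. Of the same family, Dtx1 (0.02 in its brighter probe set) and Dtx2 (-0.10), chosen after their values were seen, were not called. Dtx3 rose by 0.42 (limma adjusted p = 0.024), from 8.04, 8.23 and 7.88 to 8.47, 8.45 and 8.47. Dtx4 rose by 0.22 (limma adjusted p = 0.031). Dtx3 missed the test without vehicle replicate 1 or any of the 3 purmorphamine arrays (0.066 to 0.075), and Dtx4 with each of the 6 arrays left out (0.064 to 0.097). Fbxw7, whose ubiquitin ligase marks the intracellular domain for breakdown, differed by 0.18 (limma adjusted p = 0.057). The further ligands Dll3, Dlk1, Dlk2 and Dner gave 0 calls among 4, with differences between -0.07 and 0.09 and 0 unadjusted p under 0.05 by limma.

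The cultures held transcripts of several cell types, so no Notch gene is assigned to one. In bulk RNA, fewer cells of a type and less RNA per cell cannot be told apart. Fibroblast markers were present, with vehicle means of 12.77 for Col1a1, 11.09 for Dcn and 10.39 for Pdgfra, and 7 of 8 rose while Thy1 fell by 0.32. Macrophage and leukocyte markers were bright as well, with vehicle means from 10.69 to 13.96 over 10 genes. Of these 1 rose (Itgax, 0.31) and 4 fell. Itgam fell by 1.46, Csf1r fell by 0.63, Mrc1 fell by 0.62 and Adgre1 fell by 0.37. The mean level over this list was 12.25 to 12.26 on the vehicle arrays and 11.98 to 12.03 on the purmorphamine arrays, lower as Notch1 and Lfng were. The list did not move as one: Marco (0.20), Cd68 (0.13), Ptprc (0.07) and Lyz2 (0.05) were slightly higher and Fcer1g (-0.17) lower without passing the test, and the median of the 10 was -0.06. The part of these markers in the falls of Notch1 and Lfng was not tested. In both groups the macrophage and leukocyte list had a higher mean level than the 8 fibroblast markers. The fibroblast level was 9.64 to 9.75 with vehicle and 10.04 to 10.12 with purmorphamine. Such levels compare different probe sets and do not give shares of cells.

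Markers that share cell types with Notch3, Notch4 and Dll4 were also measured. Of 8 pericyte and smooth muscle markers 2 rose and 3 fell. Rgs5, a pericyte regulator of G-protein signalling, read 6.23, 6.27 and 6.37 with vehicle and 7.66, 7.56 and 7.32 with purmorphamine in its brighter probe set. That was a rise of 1.22 (limma adjusted p = 4.60e-04), while the mean of its 2 probe sets rose by 0.87. Pdgfrb rose by 0.38. Myh11, Cspg4 and Acta2 fell by 0.47, 0.31 and 0.19. The mean level over this list was 9.09 to 9.13 with vehicle and 9.20 to 9.24 with purmorphamine. The log2 of their summed signal, which bright genes such as Acta2 dominate, went the other way, from 14.5 to 14.3. The list as a whole is therefore given no direction.

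Of 8 endothelial markers 4 rose (Vwf 0.50, Tie1 0.36, Cdh5 0.34 and Pecam1 0.30) and 0 fell. Their mean level was 8.32 to 8.35 with vehicle and 8.54 to 8.59 with purmorphamine, and Tek (0.25), Kdr (0.06), Cldn5 (0.02) and Emcn (-0.06) were not called. The part of these lists in the rises of Notch3 and Hey1 was not tested. With 1 array left out, Tie1 and Cspg4 missed the test in 4 of 6 cases each, Cdh5 in 2 and Acta2 in all 6; of the fibroblast rises Col1a1 missed it in 4 and Lum in all 6. Epithelial markers had 1 rise among 10 (Epcam, 0.50), with mean levels of 7.53 to 7.59 and 7.52 to 7.58, and 4 of the 10 lay below the median of the arrays. Vehicle means were 10.61 for Krt18, 10.15 for Cdh1, 10.03 for Krt8 and 8.41 for Epcam, and 6.40 for the surfactant gene Sftpc and 4.24 for the airway gene Scgb1a1. Lymphocyte markers had 0 calls among 5, although 2 had an unadjusted p under 0.05 by limma, and all 5 lay below the median of the arrays.

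**Figure D4:**
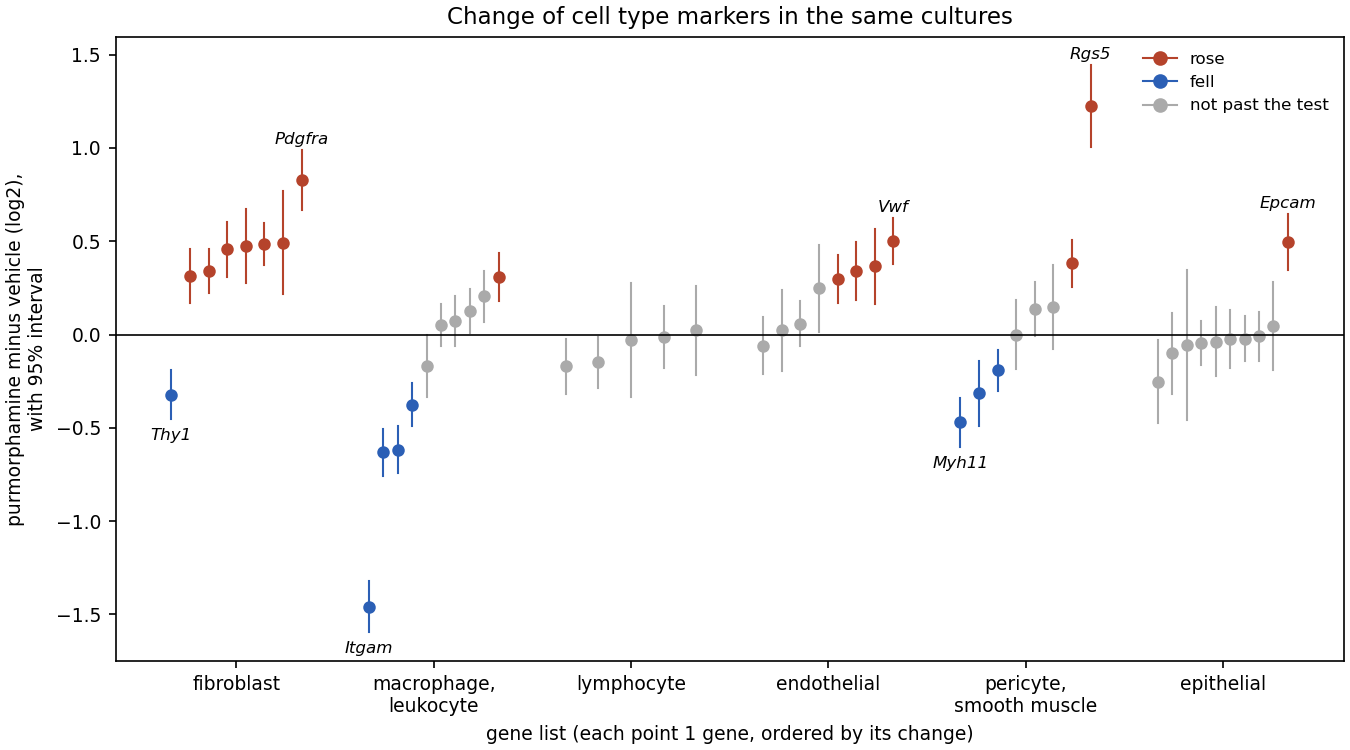
Change of cell type markers, purmorphamine minus vehicle on the log2 scale with 95% intervals from limma. Each point is 1 gene. Fibroblast markers are shifted upward except Thy1, and macrophage and leukocyte markers spread from -1.46 (Itgam) to 0.31. Rgs5 (1.22, from its brighter probe set) is the highest point.

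Array medians lay between 6.34 and 6.39, and the median SE of a difference was 0.07. On the second principal component, which carried 13.2% of the variance, both arrays numbered 3 (-13.55 and -9.56) stood apart from the other 4 (3.06 to 6.88). With both left out, and so 2 against 2 wells, Notch1 remained called (limma adjusted p = 0.027), and Notch3 (0.38, limma adjusted p = 0.10) and Hey1 (0.31, limma adjusted p = 0.084) kept their direction without passing. Lfng, Aph1c and Maml3 were the 3 other pathway genes called there.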

How the data were processed

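RNA of 6 wells was hybridised to 1 array each. Per the labels' protocols, cDNA was primed with poly(T) from 100 ng of total RNA, and in vitro transcription then gave biotin-labelled copies. The authors deposited log2 values for each probe set. The submitters' processing notes list oligo, RMA and limma without versions. RMA gives all arrays the same distribution, so a change common to all genes is not seen, and it compresses changes of dim genes. Precision is limited by the number of arrays.

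Of 41345 probe sets, 23521 had exactly 1 symbol in the supplied platform annotation. The brightest probe set of each gene, by its mean over the 6 arrays, gave 22180 genes. The contrast of purmorphamine minus vehicle was tested in limma 3.58.1 (R 4.3.3; lmFit, eBayes), without a block, two-sided; p-values were adjusted by Benjamini-Hochberg over all genes, with a call at an adjusted p under 0.05. The code was tested on simulated data. Sequences were read with Python 3.11.15 and plots drawn with matplotlib 3.10.9.

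Members and lists were chosen with earlier results of these data known. The text names all 10 members, Rbpj, up to 4 called genes of each other list by smallest p, and the uncalled further targets; other genes, mainly markers, were chosen after their values were seen. Alternatives were median centring, quantile normalization, a filter on the dimmest genes (a share of 0.333), a linear offset of 50, averaged probe sets per gene, every probe set as its own test, trend and robust eBayes, each array left out, the replicate number as a block, an adjusted p under 0.1 and, chosen after seeing the data, both arrays numbered 3 left out. Deviations of same-numbered wells from their group means correlated across genes at 0.11, 0.02 and 0.10. Those of differently numbered wells correlated at -0.09 to -0.008, all lower. Centring each group on its own mean ties these values to the former, so they are no separate evidence of pairing. The main fit did not take the numbers as pairs, and the block stands as an alternative. 3 listed genes are not analysed here.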

Additional observations from a re-analysis of the deposited data

How the results depend on the processing

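The calls of Notch1, Notch3 and Hey1 kept their direction and passed the test under the alternatives run, except that Notch3 and Hey1 missed it with both arrays numbered 3 left out. That setting, with 2 wells a group, called 1 of the 10 Notch genes, 3 of the other pathway genes and 951 of all genes. With 1 array left out, 3 of the Notch genes, 7 to 8 of the other pathway genes and 1967 to 2374 of all genes were called. With the replicate block these counts were 3, 7 and 2432. The block ended 5 of the calls among 54 named genes, with Cir1 (limma adjusted p = 0.052), Dtx4 (0.066) and Aph1a (0.061) in the pathway. The labels link same-numbered wells by number only, while both arrays numbered 3 also stood apart on the second principal component. A linear offset of 50, the filter on dim genes, trended and robust eBayes and an adjusted p under 0.1 each called 4 Notch genes, Jag1 being the further one, so that rises made up 50% of calls against 66.7%. Of the other pathway genes, 9 to 13 were called with all 6 arrays and no block. No named gene changed sign with a call on either side; Hes1, Jag2 and Hes2, not called, changed sign in some settings. Dll4, Dll1, Jag2 and Notch3 lie near the array medians, where RMA compresses changes.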
